A study of Saccharomyces cerevisiae with 44 samples.

Results

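Ty elements are the long terminal repeat retrotransposons of budding yeast, and the members described here are the open reading frames that fill them. Members were the rows whose systematic name ends in a hyphen and a capital letter, whose length is at least 1200 bases and which lie more than 15000 bases inside the outermost rows of their chromosome. The rule found 71 of 6692 yeast rows. Of these, 67 are annotated as gag or gag-pol frames and 4 are other genes that share the naming style: LSB3, MEI4, FCY22 and YDR179W-A. By family, 43 frames belong to Ty1, 18 to Ty2, 2 to Ty3 and 2 to Ty4, and 2 frames (YDR170W-A and YLR035C-A) lie in no annotated element. Another 22 annotated Ty frames of the table fall outside the rule.

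The series followed messenger RNA of Saccharomyces cerevisiae strain CEN.PK122 through the yeast metabolic cycle, in which a glucose-fed continuous culture swings between high and low respiration. In the fast condition the medium, with 1% glucose, was renewed at 0.12 to 0.13 volumes per hour, and 20 libraries were made, 1 every 13 min. In the slow condition the same medium was renewed at 0.045 to 0.05 volumes per hour, and 24 libraries were made, 1 every 36 min. Each course spans 2 cycles, so 10 time points make a fast cycle and 12 a slow one. No genotype or mating type beyond the strain name is given in the labels, and no replicate cultures are named. Each condition was therefore treated as 1 culture, so a p-value speaks of variation over its time points and not of other cultures. Values are RPKM as deposited, that is reads divided by gene length and by library size. Depth recovered from the steps of the values was 7.60 to 19.7 M reads in fast libraries and 6.45 to 13.1 M in slow libraries.

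A Ty element is copied through an RNA that is packed into virus-like particles, reverse transcribed and inserted elsewhere in the genome. The frame TYA encodes the Gag-like particle protein. TYB encodes protease, integrase and reverse transcriptase and is reached by a +1 ribosomal frameshift, so that the annotated gag-pol row (called the TYB row below) contains the TYA row. Ty1 and Ty2 are close relatives of the copia type, Ty4 is also of the copia type, and Ty3 is of the gypsy type and inserts at the start sites of transfer RNA genes.

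The annotated frameshift junctions are shown for 1 gag-pol row of each family, because the TYA row ends at or past this point. Reads within the TYA row can count in both the TYA and the TYB row, and reads downstream of its end only in the TYB row. Each run has 41 bases, read 5′ to 3′ on the strand of the frame from the RefSeq R64 genome, whose coordinates are those of sacCer3. Capitals mark the base that the annotation skips, with 3 bases on each side.
YNL284C-B (Ty1, chrXIV:100907-100947, minus strand): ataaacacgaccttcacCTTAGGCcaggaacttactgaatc
YBL100W-B (Ty2, chrII:31208-31248, plus strand): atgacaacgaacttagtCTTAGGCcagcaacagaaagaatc
YGR109W-B (Ty3, chrVII:708440-708480, plus strand): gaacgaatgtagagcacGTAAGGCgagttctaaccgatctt
YHL009W-B (Ty4, chrVIII:86975-87015, plus strand): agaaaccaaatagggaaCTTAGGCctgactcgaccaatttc
The 7 capitals read CTTAGGC in the Ty1, Ty2 and Ty4 rows and GTAAGGC in the Ty3 row. They show where the annotation joins the parts of the frame. Whether ribosomes shift at exactly these bases was not examined, so GTAAGGC is not shown to be the Ty3 frameshift site.

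Most Ty1 TYA rows differ from the row YGR027W-A at few positions. A second pair of runs shows the 40 bases in which the Ty1 TYA row YPR158C-C, the TYA row with the highest mean, differs most from the Ty1 TYA row YGR027W-A, which was listed at 0 RPKM in all 44 libraries. They are bases 209 to 248 of both frames, compared without gaps, and capitals mark the 10 bases that differ.
YPR158C-C (Ty1, chrXVI:856010-856049, minus strand): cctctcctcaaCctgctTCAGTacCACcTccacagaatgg
YGR027W-A (Ty1, chrVII:536265-536304, plus strand): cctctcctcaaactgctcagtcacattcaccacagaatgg
Over the whole frame of 1323 bases these rows differ at 17 positions. Other Ty1 TYA rows differ from YGR027W-A at 6 to 180 positions, and 8 of the 24 Ty1 TYA rows have an identical copy among the members.

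Most Ty frames had almost no reads assigned to them. Of the 67 frames, 25 were listed at 0 in all 44 libraries, 20 had a mean above 0 and under 0.1 RPKM, 14 a mean of 0.1 to 1 RPKM and 8 a mean of at least 1 RPKM. Over all yeast rows, 167 of 6692 (2.5%) were at 0 in every library, and the median mean was 42.8 RPKM. The zeros fell on copies without a sequence of their own: of the 24 frames with no 50-base window found once in the reference genome, 22 were at 0 throughout. Of the 43 frames with at least 1 such window, 3 were. Spearman's rho between the share of unique windows and the mean was 0.75 across the 67 frames, which share sequence and are not independent. Values of a Ty row hold only the reads that the submitters' processing gave to that copy, and its treatment of reads that match several copies is not stated in the labels or the table. The reference genome is of strain S288C, and the insertions that CEN.PK122 carries were not examined.

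**Figure D1:**
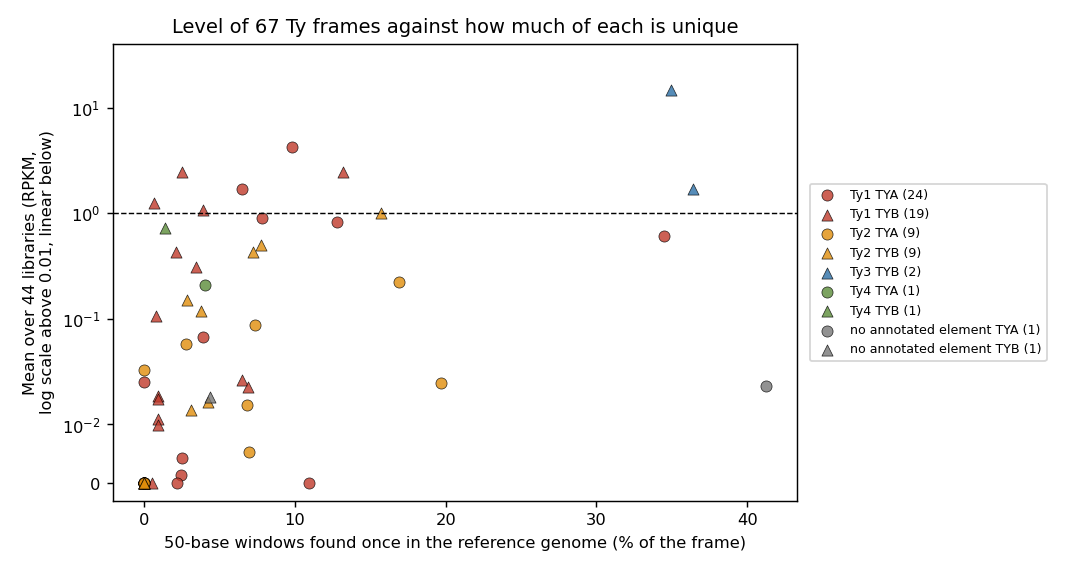
Mean RPKM over 44 libraries of the 67 Ty frames (y axis, logarithmic above 0.01 and linear below) against the percentage of 50-base windows of the frame found once in the reference genome (x axis). Circles are TYA rows and triangles TYB rows, coloured by family, with the number of rows in brackets. The dashed line is the 1 RPKM filter, which 6 Ty1 and 2 Ty3 rows passed; frames with no unique window sit at or near 0.

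In place, the elements share a neighbour that the rule did not use. Of the 36 annotated elements that hold members, 29 (80.6%) lie within 1000 bases of a transfer RNA gene, against 411 of 6571 nuclear rows that are not Ty frames (6.25%). The median distance was 192 bases for the elements and 17240 bases for those rows. The counts were 20 of 24 for Ty1, 6 of 9 for Ty2, 2 of 2 for Ty3 and 1 of 1 for Ty4. The Ty3 elements lay 16 and 18 bases away. These are facts of the reference annotation and carry no test.

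Taken by family, the summed reads on Ty1 frames were higher in every fast library than in any slow library. Nested frames were counted once for this sum. The 21 Ty1 rows took 63.0, 84.6 and 131 reads per 1000000 gene reads in fast libraries (lowest, median and highest, n = 20), against 15.6, 27.4 and 35.7 in slow libraries (n = 24). The groups did not overlap, and the medians stood in a ratio of 3.09. Most reads of the sum lay on YLR227W-B, YNL284C-B, YPR158C-D and YDR261C-D, which are also tested as single rows below. These held 4882, 4639, 2220 and 2205 reads over the fast libraries, and 1484, 1681, 503 and 656 over the slow libraries. Some of the 21 rows had 0 reads, so the sum does not speak for every Ty1 copy. In bulk RNA, more RNA per cell and more cells that make it cannot be told apart.

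The gap was there in each cycle. The Ty1 median was 85.8 such reads in the first and 79.9 in the second fast cycle, against 24.8 in the first and 28.1 in the second slow cycle. The highest fast value came at time point 1 and the lowest at time point 14.

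The other families overlapped between the cultures. The 9 Ty2 rows took 10.8, 15.8 and 31.7 such reads in fast libraries and 9.30, 12.3 and 15.5 in slow libraries, with 15 of 20 fast libraries above the highest slow one. The 2 Ty3 rows took 71.8, 91.3 and 162 in fast libraries, against 58.3, 89.0 and 107 in slow libraries. The single Ty4 row that is not nested took 2.64, 5.27 and 8.27 in fast libraries, against 1.59, 4.65 and 6.64 in slow libraries. Ratios of medians were 1.28 for Ty2, 1.03 for Ty3 and 1.13 for Ty4, and the difference between families was not tested. All 35 member Ty rows that are not nested took a median of 197 such reads in fast libraries and 134 in slow libraries.

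**Figure D2:**
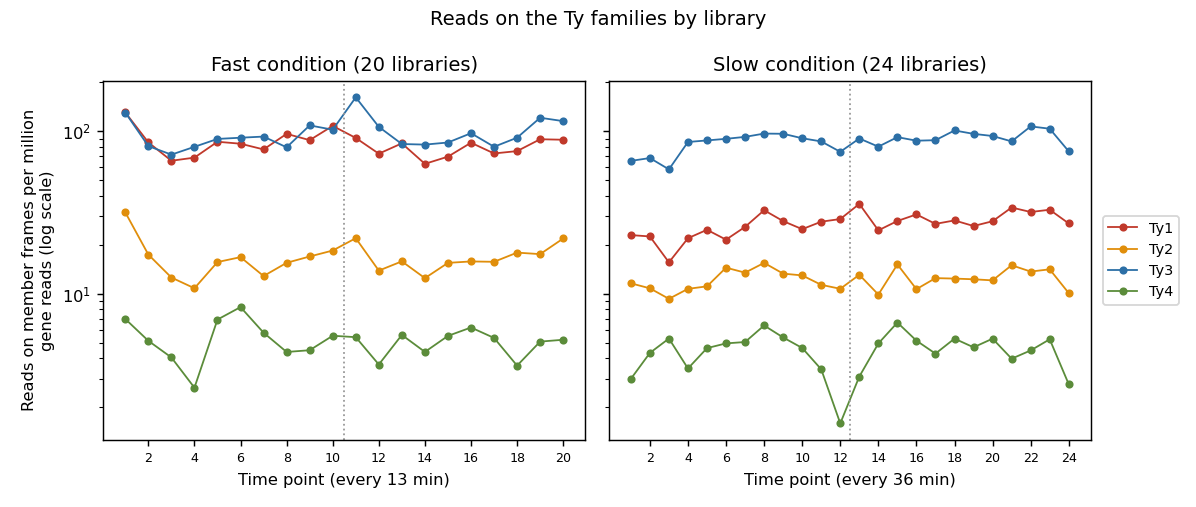
Level of the member frames of Ty1, Ty2, Ty3 and Ty4 in reads per 1000000 gene reads (logarithmic y axis) by time point, fast condition on the left and slow condition on the right; the dotted line parts the cycles. Ty1 (red) runs at 63.0 to 131 in fast libraries and 15.6 to 35.7 in slow libraries, while Ty3 (blue) has medians of 91.3 and 89.0.

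Single rows were tested where the mean over the 44 libraries was at least 1 RPKM, which 12 members passed: 6 Ty1 frames, 2 Ty3 frames and the 4 other genes. Levels were compared with limma on log2(RPKM + 1), fast minus slow, a scale that understates the change of low rows. The p-values were adjusted over all 5820 tested rows. A row was called at an adjusted p under 0.05 and at least 2-fold. By this rule 109 rows (1.87%) were higher and 137 (2.35%) lower in fast. Scaling to the external control RNAs gave 178 higher and 98 lower and moved the median of all rows by 0.21. Of the 8 tested Ty frames, 3 were higher in fast and 0 lower, all 3 from Ty1. At any size, 6 of 8 Ty frames were higher and 0 lower, against 1040 (17.9%) higher and 1186 (20.4%) lower rows overall. These counts describe the rows that passed the filter and are no support for a difference of the family: YPR158C-D and YDR261C-D reached a mean of 1 RPKM only through the fast libraries, with means of 1.85 and 2.03 RPKM in fast and 0.406 and 0.580 RPKM in slow, and YPR158C-D shares its reads with YPR158C-C.

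The TYA row YPR158C-C, the gag frame of element YPRCTy1-4 (chromosome XVI, 854935 to 856257, minus strand), had the largest change of the tested members. It stood at 3.08, 6.74 and 12.0 RPKM in fast libraries (lowest, median, highest), against 0.709, 1.67 and 2.48 RPKM in slow libraries. Every fast library lay above every slow one. The log2 change was 1.65 ± 0.11 (SE; limma, adjusted p = 3.32e-16), which ranked 15 from the highest among the tested rows. Its values rest on 2212 reads over the fast libraries and 501 over the slow libraries.

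The gag-pol row of the same element, YPR158C-D, shares those reads: 99.6% of its reads in each condition lay inside YPR158C-C. Its 0.772, 1.69 and 3.05 RPKM in fast libraries, against 0.178, 0.419 and 0.622 RPKM in slow libraries, are therefore not a second measurement. Its log2 change of 0.996 ± 0.07 (SE; limma, adjusted p = 3.34e-15) missed the 2-fold threshold. YPR158C-D passed the filter of 1 RPKM only through its fast libraries, so these values are a description.

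YLR227W-B, the gag-pol frame of YLRWTy1-2 (chromosome XII, 593438 to 598706, plus strand), was at 2.33, 3.89 and 6.95 RPKM in fast libraries, against 0.511, 1.18 and 1.69 RPKM in slow libraries. The groups did not overlap. The log2 change was 1.18 ± 0.08 (SE; limma, adjusted p = 5.08e-17). None of its 4882 fast and 1484 slow reads fell in its TYA row YLR227W-A. That row has no 50-base window found once in the reference genome, so missing reads there do not show missing RNA. The part outside TYA held 5.34 ± 1.40 RPKM in fast libraries and 1.58 ± 0.41 in slow libraries (SD, n = 20 and 24).

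YNL284C-B, the gag-pol frame of YNLCTy1-1 (chromosome XIV, 96964 to 102232, minus strand) and the Ty1 TYB row with the highest mean, whose junction is printed above, was at 2.61, 3.78 and 6.51 RPKM in fast libraries, against 0.756, 1.39 and 1.76 RPKM in slow libraries. Again no libraries overlapped. The log2 change was 1.04 ± 0.06 (SE; limma, adjusted p = 8.48e-18). Here 5.20% of the fast and 8.92% of the slow reads lay in the nested TYA row.

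YLR227W-B and YNL284C-B passed the 2-fold threshold on the first cycles alone and missed it on the second cycles alone, with log2 changes of 0.96 and 0.90. YPR158C-C passed it in both.

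Of the remaining tested Ty1 frames, YDR261C-D, the gag-pol row of YDRCTy1-3, was at 1.28, 2.00 and 2.84 RPKM in fast libraries, against 0.292, 0.595 and 0.902 RPKM in slow libraries. There was no overlap, and the log2 change was 0.94 ± 0.05 (SE; limma, adjusted p = 9.31e-19). YDR261C-D passed the filter of 1 RPKM only through its fast libraries, so its separation is a description and no support. The gag row YOL103W-A of YOLWTy1-1 was at 1.47, 2.39 and 3.72 RPKM in fast libraries, against 0.443, 0.966 and 2.10 RPKM in slow libraries. It overlapped, with 14 of 20 fast libraries above the highest slow one, and changed by 0.76 ± 0.09 (SE; limma, adjusted p = 9.88e-10).

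Full separations of the cultures were few in the table and more often ran the other way. Every fast library lay below every slow library in 24 of 5820 rows (0.412%), with 0 members among them, and above in 7 rows (0.12%). Of the 7, 5 of these are the Ty1 rows YPR158C-C, YPR158C-D, YLR227W-B, YNL284C-B and YDR261C-D, from 4 elements; YPR158C-D and YDR261C-D had entered the tested rows only through their fast values. The other two are ALT1, for an alanine aminotransferase, and HAP1, for a haem-responsive transcription factor. In the reference annotation the HAP1 row overlaps the Ty1 element YLRWTy1-3 by 100 bases.

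The Ty3 frames did not pass the threshold of 2-fold. YGR109W-B, the gag-pol row of YGRWTy3-1 (chromosome VII, 707610 to 712254, plus strand) and the Ty frame with the highest level per length, was at 11.4, 14.5 and 26.7 RPKM in fast libraries, against 9.23, 14.0 and 16.9 RPKM in slow libraries. Of the reads of YGR109W-B, 0.33% in fast and 0.03% in slow lay in the nested gag row YGR109W-A, which had 56 fast and 4 slow reads. The values of YGR109W-B therefore describe the part outside that row. The groups overlapped, apart from 6 fast libraries above the slow range. The log2 change was 0.17 ± 0.07 (SE; limma, adjusted p = 0.0644). It passed an adjusted p under 0.05 at any size with control RNA scaling, at 0.38 (adjusted p = 0.0346, limma), and with median of ratios scaling, at 0.17 (adjusted p = 0.0298, limma); over all alternatives the adjusted p ran from 0.0298 to 0.299. YIL082W-A, the gag-pol row of YILWTy3-1, was at 1.12, 1.73 and 2.29 RPKM in fast libraries, against 0.98, 1.72 and 2.36 RPKM in slow libraries. These ranges nearly coincide, and the change was -0.02 ± 0.06 (SE; limma, adjusted p = 0.826). Both copies had 35.0% to 36.4% unique windows, more than any tested Ty1 row.

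**Figure D3:**
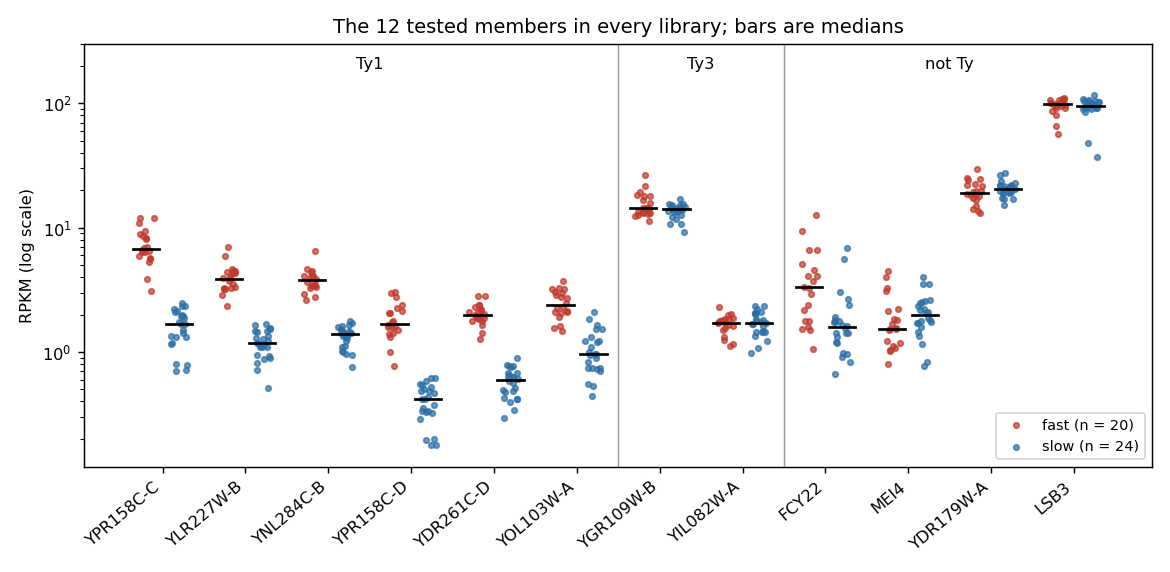
RPKM (logarithmic y axis) of the 12 tested members in each library, fast (red, n = 20) left of slow (blue, n = 24), with black bars at the medians. The 5 Ty1 rows on the left have fast points that all lie above the slow points. Of these 5, YPR158C-D and YDR261C-D passed the filter of 1 RPKM only through their fast libraries. The sixth Ty1 row, YOL103W-A, the Ty3 rows and the genes that are not Ty overlap.

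To bring in more copies, rows with a mean of at least 0.1 RPKM were tested with a pseudocount of 0.1, a setting chosen after the data were seen. Of 6213 rows, 153 (2.46%) were higher and 208 (3.35%) lower in fast by the same rule. Of 12 Ty1 frames, 8 were higher and 0 lower, as a description of the frames that passed this filter. Among the 12, YPR158W-B passed it only through the fast libraries (means of 0.175 RPKM in fast and 0.0490 RPKM in slow), and YPR158C-D and YOL103W-B repeat the reads of their gag rows. Of the 6 Ty2, 2 Ty3 and 2 Ty4 frames, 0 passed the 2-fold threshold. At any size, limma called 5 of 6 Ty2 frames higher, by 0.27 to 0.85 on the log2 scale, and 10 of 12 Ty1 frames, but 0 of the Ty3 and Ty4 frames, whose lowest adjusted p was 0.0664. Of all rows in this set, 1072 (17.3%) were higher and 1232 (19.8%) lower at any size.

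The copies entering here differed in size of change. The Ty1 gag row YNL054W-A was at 0.588, 1.36 and 3.33 RPKM in fast libraries, against 0.079, 0.298 and 0.7 RPKM in slow libraries, a log2 change of 1.90 ± 0.16 (SE; limma, adjusted p = 6.02e-13). The gag row YNL284C-A, nested in YNL284C-B, was at 0.215, 0.770 and 2.09 RPKM in fast libraries, against 0.142, 0.483 and 0.761 in slow libraries, a change of 0.55 ± 0.17. The gag row YDR210C-C was at 0.267, 0.888 and 2.58 RPKM in fast libraries, against 0.071, 0.846 and 1.34 in slow libraries, a change of 0.27 ± 0.20. All 3 rows overlapped between the cultures, and the medians of YDR210C-C were nearly equal.

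In Ty2, the gag-pol row YBL100W-B of YBLWTy2-1 had the highest mean, at 0.585, 1.11 and 2.13 RPKM in fast libraries and 0.516, 0.897 and 1.28 in slow libraries. The Ty2 gag row with the highest mean, YDR261W-A, was at 0, 0.274 and 0.849 RPKM in fast libraries and 0, 0.114 and 0.349 in slow libraries, on 103 fast and 41 slow reads. In both rows the groups overlapped, and the highest fast values lay above the slow range. Of the Ty4 element YHLWTy4-1, the gag-pol row YHL009W-B was at 0.405, 0.803 and 1.25 RPKM in fast libraries and 0.245, 0.708 and 1.00 in slow libraries. Its gag row YHL009W-A rested on 67 fast and 59 slow reads.

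**Figure D4:**
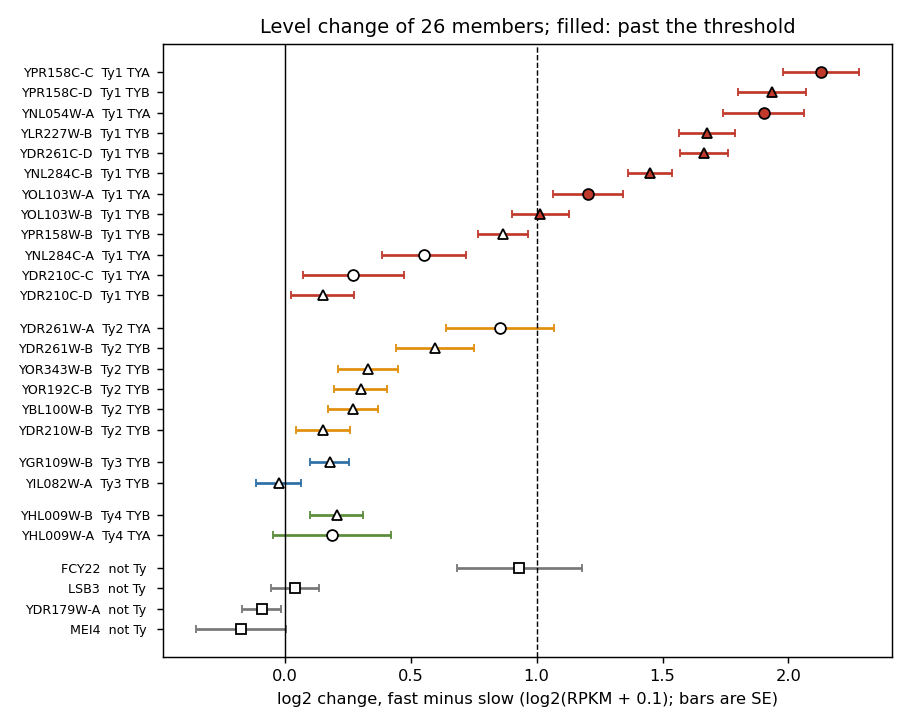
Change in level, fast minus slow (log2 of RPKM + 0.1, limma, bars are SE), of the 26 members with a mean of at least 0.1 RPKM, grouped by family. Circles are TYA rows, triangles TYB rows and squares genes that are not Ty; filled symbols passed an adjusted p under 0.05 and 2-fold (dashed line). The 8 filled symbols are all Ty1.

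Of the 34 Ty frames with a mean above 0 and under 1 RPKM, 29 had more reads per sequenced read in fast and 5 in slow; for Ty1 these were 13 and 3, for Ty2 12 and 2. The frames in no annotated element, YDR170W-A and YLR035C-A, had 9 and 18 reads over the fast libraries and 6 and 11 over the slow libraries. Copies share reads and sequence, and nested rows such as YDR210C-C and YDR210C-D count the same reads again. Directions of other rows of like level were not counted. These counts therefore carry no test and cannot be read as particular to Ty frames.

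Few Ty frames passed a test of following the metabolic cycle. Most of them had low reads, which weakens such a test, and rows of like level were not compared. Cycling was tested with an exact rank test of the time course against cosine shapes of 9 to 11 time points in fast and 11 to 13 in slow, at an adjusted p under 0.05 over all tested rows. Of all rows, 4325 (74.3%) passed in fast and 3210 (55.2%) in slow, and scaling to the control RNAs left 1482 in fast. Of the 8 Ty frames, 0 passed in fast and 2 in slow: the Ty3 row YGR109W-B (adjusted p = 0.0336, exact rank test) and the Ty1 row YDR261C-D (adjusted p = 0.0345, exact rank test). In fast, 1 of the 8, YGR109W-B, had an unadjusted p under 0.05 (adjusted p = 0.0542, exact rank test), and harmonic regression called 3. Of the 4 members that are not Ty, 4 passed in fast and 2 in slow. In the set with a mean of at least 0.1 RPKM, 3 of 22 Ty frames passed in fast and 2 in slow, against 69.7% and 51.8% of all rows of that set.

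The profile range, the highest minus the lowest log2 value of the mean of both cycles, had a median of 0.61 in fast and 0.42 in slow over the Ty frames. Over all tested rows it was 1.13 and 1.16. The values are log2(RPKM + 1), which narrows the range of low rows, and most tested Ty frames were low. These medians therefore do not compare rows of like level. YGR109W-B had its highest fast values at the first time point of each cycle, 21.4 RPKM at time point 1 and 26.7 at time point 11, and its lowest at time point 3. The correlation of its log2 values between the cycles was 0.85 in fast and 0.39 in slow. Its profile range was 0.90 in fast and 0.40 in slow, but the cosine ranges of 0.54 ± 0.14 and 0.34 ± 0.08 (SE) did not differ past the threshold (z test, adjusted p = 0.350).

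Ty1 copies followed each other only in part over time. Among 14 pairs of tested Ty1 rows that are not nested, Pearson's r over the fast libraries ran from -0.46 to 0.76 with a median of 0.40, and over the slow libraries from -0.18 to 0.78 with a median of 0.25. YLR227W-B and YNL284C-B had the highest r in fast (0.76), both with their highest fast value at time point 1. For 0 of the 8 Ty frames did the cosine range differ between the conditions by the z test, adjusted or unadjusted, at p under 0.05. Over all rows 1898 (32.6%) had the larger range in fast and 167 (2.87%) in slow.

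**Figure D5:**
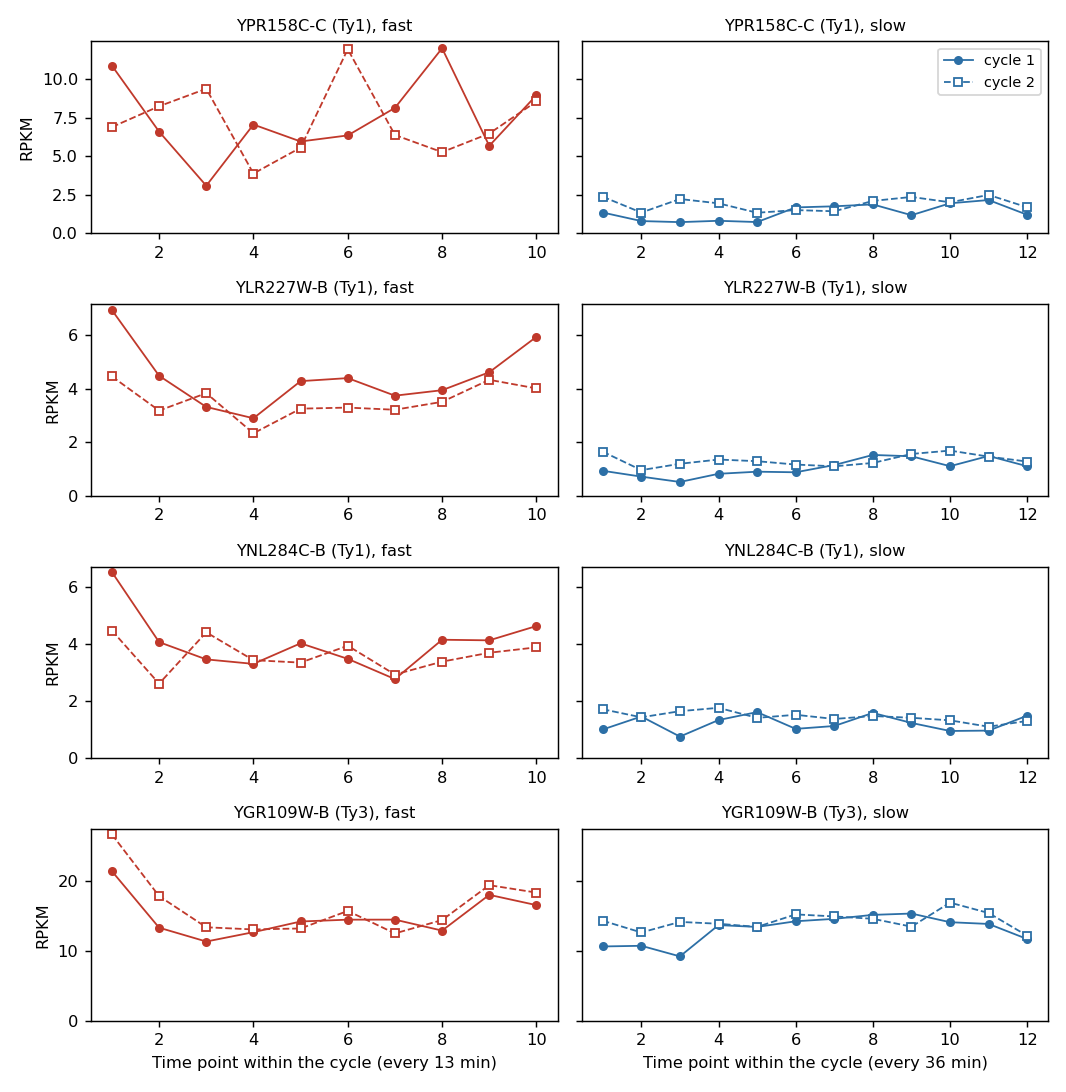
RPKM by time point within the cycle for the Ty1 rows YPR158C-C, YLR227W-B and YNL284C-B and the Ty3 row YGR109W-B, fast on the left and slow on the right on a y axis from 0 that each pair of panels shares; filled circles are cycle 1 and open squares cycle 2. The fast values of the Ty1 rows lie above their slow values throughout, and YGR109W-B has its highest values, 21.4 and 26.7 RPKM, at the first point of each fast cycle.

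The 4 members that are not Ty frames all passed the cycling test in fast on the deposited scaling. With control RNA scaling 0 of 4 did, at adjusted p of 0.0748 for FCY22, 0.213 for LSB3, 0.546 for MEI4 and 1 for YDR179W-A (exact rank test). YDR179W-A also lost the call with median of ratios scaling (adjusted p = 0.114, exact rank test). FCY22, annotated as a purine-cytosine permease, was at 1.06, 3.32 and 12.7 RPKM in fast libraries and 0.661, 1.58 and 6.90 in slow libraries, and peaked at cycle time point 8 in fast and 12 in slow, with profile ranges of 1.90 and 2.02. The groups overlapped. It passed the cycling test in both (adjusted p = 0.000130 in fast and 0.00301 in slow, exact rank test), and its level change was 0.68 ± 0.19 (SE; limma, adjusted p = 0.00325). MEI4, needed for meiotic double-strand breaks, was at 0.806, 1.54 and 4.52 RPKM in fast libraries and 0.778, 1.97 and 4.04 in slow libraries. It also passed in both, with adjusted p of 0.00236 in fast and 0.00223 in slow (exact rank test).

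LSB3, for an actin patch protein, was at 56.3, 98.7 and 111 RPKM in fast libraries and 36.9, 95.6 and 117 in slow libraries, and passed in fast (adjusted p = 0.000184, exact rank test) but not in slow (adjusted p = 0.257, exact rank test), while its cosine ranges did not differ past the threshold (z test, adjusted p = 0.479). In slow it passed without time points 12 and 24 (adjusted p = 0.00816, exact rank test) and with a linear trend removed (adjusted p = 0.0114, exact rank test), so the contrast between the cultures depends on the setting. YDR179W-A, annotated as Nvj3p, was at 13.1, 19.0 and 29.6 RPKM in fast libraries and 15.1, 20.5 and 27.7 in slow libraries. It passed in fast (adjusted p = 0.00787, exact rank test). Its cosine range was 0.56 ± 0.14 in fast and 0.12 ± 0.11 in slow (SE; z test of the difference, adjusted p = 0.0443). The level differences of MEI4, LSB3 and YDR179W-A were -0.11, 0.04 and -0.09 on the log2 scale and did not pass.

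Host genes known to act on Ty elements were taken in 4 lists. In these, 0 genes passed limma's adjusted p under 0.05 at 2-fold or more, where 1.87% of all tested rows were higher and 2.35% lower. At any size the shares of all rows were 17.9% higher and 20.4% lower, and the counts given for each list stand beside these. Changes under the 0.21 that control RNA scaling adds depend on the scaling. Of 18 regulators of Ty transcription, 8 were higher and 1 lower at any size, with a median change of 0.14. TEC1, a transcription factor that binds Ty1, was at 140, 207 and 589 RPKM in fast libraries and 80.2, 122 and 266 in slow libraries, a log2 change of 0.82 ± 0.14. Its partner STE12 changed by 0.65 ± 0.19, the SWI/SNF subunit gene SWI3 by 0.56 ± 0.07 and the transcription factor gene TYE7 by -0.40 ± 0.11 (SE; all 4 past limma's adjusted p under 0.05).

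Of 10 genes of RNA fate and particle formation, 4 were higher and 1 lower at any size (median 0.08), among them the exonuclease gene XRN1 (0.33 ± 0.06), the nonsense-mediated decay helicase gene NAM7 (0.38 ± 0.08) and its partner UPF3 (-0.36 ± 0.11). Of 7 genes of integration targeting, 1 was higher and 1 lower: the RNA polymerase III factors TFC1 (0.18 ± 0.06) and BRF1 (-0.16 ± 0.06). RPC40, a polymerase subunit that Ty1 integrase binds, stood at -0.16 ± 0.30 and did not pass. Of 11 genes that restrict retrotransposition, 2 were higher, the histone acetyltransferase gene RTT109 (0.40 ± 0.12) and the helicase gene SGS1 (0.25 ± 0.07). The median of the list was 0.19. Its largest change, of FUS3 (0.65 ± 0.28), did not pass (limma, adjusted p = 0.0556).

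Most listed genes of the pheromone response, a list known to move from earlier results of these data, were higher in fast in level. This programme runs in haploid cells through STE12, and in laboratory strains Ty1 RNA is known to be lower in a/alpha diploid cells than in haploid cells. No mating type is given in the labels, and a part of this programme in the Ty1 difference was not tested. Of 10 genes, 7 were higher in fast past 2-fold and 0 lower, with a median change of 1.42, against 1.87% higher and 2.35% lower of all tested rows. Over time 9 of the 10 passed the cycling test in fast and 3 in slow, where 74.3% and 55.2% of all tested rows passed. Of the 6 tested Ty1 rows, 0 passed in fast and 1 in slow. The summed level of the 10 pheromone response genes was 859 to 10711 RPKM in fast libraries, against 382 to 1957 RPKM in slow libraries, so the ranges overlapped.

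The alpha-factor gene MF(ALPHA)1 was at 51.6, 206 and 1108 RPKM in fast libraries, against 10.6, 25.3 and 88.3 in slow libraries, a change of 3.15 ± 0.34. The a-factor gene MFA2 was at 351, 1064 and 4753 RPKM in fast libraries, against 106, 284 and 788 in slow libraries, a change of 2.08 ± 0.28. The a-cell receptor gene STE2 changed by 2.02 ± 0.34, while the alpha-cell receptor gene STE3 (-0.15 ± 0.09) and MF(ALPHA)2 (-0.12 ± 0.13) did not pass (SE; limma, adjusted p over all tested rows). No gene of the list was at 0 throughout. The list was known to move from earlier results of these data, and its part in the Ty1 difference was not tested.

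Of 5307 rows outside the members with a mean of at least 10 RPKM, the course most like the median log2 profile of the 12 tested members over the 44 libraries was that of MCT1, for a mitochondrial acyl transferase (Pearson's r = 0.90). It was followed by MF(ALPHA)1 (0.87), the iron uptake gene FET3 (0.86), ALT1 (0.86) and YPR117W (0.86). None of these overlaps a member. Within the fast libraries alone r was 0.39 to 0.75, and within the slow libraries alone 0.02 to 0.66.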

How the data were processed

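Poly(A)-selected, stranded libraries of 44 time points were counted by the authors. The deposited table holds RPKM for sense-strand reads over gene bodies, made with HOMER on an sacCer3 annotation with external control RNAs, per the file headers. FastQC 0.10.1, TopHat2 2.0.10 and HOMER are listed in the submitters' processing notes. Extraction was done in 4 random groups, whose members the labels do not give, so that batch was not tested.

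Members and gene lists were chosen with earlier results of these data known. Rows with a mean of at least 1 RPKM were tested (5820). For levels, log2(RPKM + 1) went into limma 3.58.1 under R 4.3.3, with Benjamini-Hochberg adjustment. Cycling was tested with an exact rank test against cosine shapes and cosine ranges with a z test, in Python 3.11.15 with numpy 2.4.6, scipy 1.17.1 and pandas 2.3.3. The tests were first tested on simulated data. Each low RPKM value above 0 in the shorter rows was a whole multiple of 1 read (tolerance 0.1). Higher values and longer rows, among them the TYB rows, were not checked in this way. The steps gave depth and reads per row. No count test was run on these reads. Rows were named by a fixed rule: the highest mean of each family and frame, every member past a threshold and the 5 courses most like the members. Alternatives covered scaling, pseudocount, filters, left-out time points, each cycle, the test used and the threshold. Coordinates are of sacCer3, and 99.87% of 6008 rows had the same start and end in the R64 annotation.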

Additional observations from a re-analysis of the deposited data

Results flagged for a closer look

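YDR179W-A, which is not a Ty frame, differed between the cultures in the size of its cycle: its cosine range was 0.56 ± 0.14 in fast and 0.12 ± 0.11 in slow (SE; z test, adjusted p = 0.0443). Scaling by the median of ratios gave a difference of 0.25 with an adjusted p of 0.239.

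Among Ty frames outside the rule, 2 Ty1 rows had reads in the slow culture only. The gag row YJR026W had 0 reads over the fast libraries, where a count of 0 allows up to 3, and 102 reads over the slow libraries, in 5 of 24 of them and up to 3.895 RPKM. The gag-pol row YER138C had 0 reads over the fast libraries and 14 over the slow libraries, in 4 of 24. Neither row has a 50-base window found once in the reference genome.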

How the results depend on the processing

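The 6 tested Ty1 frames were higher in fast in all 66 values under other settings, at an adjusted p under 0.05 and by 0.60 to 2.13 on the log2 scale. These values reuse the same libraries and are not independent support. YPR158C-D and YDR261C-D had entered the tested rows only through their fast values, and YPR158C-D repeats the reads of YPR158C-C. The count of Ty frames higher past 2-fold, 3 of 8, became 5 with control RNA scaling, 6 with a pseudocount of 0.1, 8 of 22 in the wider set, 0 of 1 at a mean of at least 10 RPKM, 1 on the second cycles alone and 6 at any size. The count cycling in fast, 0 of 8, became 1 with median of ratios scaling, without time points 8 and 18 or with a linear trend removed, 3 with harmonic regression, 6 of 42 with no filter and 3 of 22 in the wider set. The count cycling in slow, 2 of 8, became 0 with control RNA scaling or at an adjusted p under 0.01, 1 without time points 12 and 24, with the trend removed or at a mean of at least 10 RPKM (of 1), and 4 with harmonic regression. The pseudocount gives no value for the rank test. Over all rows, control RNA scaling left 1482 cycling in fast and 237 with different ranges (209 larger in fast, 28 in slow), and 2226 rows changed level at any size. Reversed values were small: with control RNA scaling YIL082W-A became 0.13, YDR179W-A 0.12 and MEI4 (YER044C-A) 0.0230, and the range difference of YDR179W-A became -0.0352; on the first cycles alone YIL082W-A became 0.0455. The causes were not tested. With time point number as a replicate block, 253 rows were called (114 higher, 139 lower) and 4 Ty frames were higher; the numbers do not pair the libraries (r between same-numbered libraries -0.70 to 0.70, 10 of 20 over 0.1). Low depth on most copies limits single rows, and p-values cover 1 culture per condition.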

Other observations

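Among the Ty frames outside the rule, the gag-pol row YHR214C-B, which lies 12701 bases from the outermost row of its chromosome, was at 0.99, 1.66 and 3.08 RPKM in fast libraries (lowest, median, highest) and 0.455, 0.822 and 2.04 in slow libraries. Its gag row YHR214C-C had 61 reads over the fast libraries and 2 over the slow libraries. The Ty1 gag-pol row YJR027W was at 0.475, 0.698 and 1.35 RPKM in fast libraries and 0.150, 0.284 and 1.14 in slow libraries. The Ty2 gag-pol row YCL019W was at 0.083, 0.182 and 0.421 RPKM in fast libraries and 0.019, 0.062 and 0.159 in slow libraries. The Ty3 gag row YGR109W-A had 56 reads over the fast libraries and 4 over the slow libraries, while the gag-pol row around it, YGR109W-B, had 16791 and 15179. The Ty1 gag row YMR046C and the gag-pol row YMR045C around it went the other way. They had 20 and 30 reads over the fast libraries and 36 and 40 over the slow libraries. Of 233 rows that are not Ty and have under 50% unique windows, 104 were in the wider set. Of these 104, 1 was higher and 8 lower in fast by that set's rule, with a median change of -0.06 on the log2 scale. Among all rows of that set, 2.46% were higher and 3.35% lower.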
